A study of Mus musculus with 6 samples.

Results

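The calcium/calmodulin-dependent kinase family was examined in RNA-seq of whole cerebellum through 10 genes, chosen by symbol from the table of raw counts. They are the 4 CaMKII subunit genes *Camk2a*, *Camk2b*, *Camk2d* and *Camk2g*, the CaMKIV gene *Camk4*, the CaMKI genes *Camk1* and *Camk1d*, the upstream kinase genes *Camkk1* and *Camkk2*, and the pseudokinase gene *Camkv*. These are 10 of the 53746 genes in that table. All 10 passed the filter on low counts, which kept 16961 genes for testing.

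The study asked what a constitutively active form of STING, an adaptor of innate immune signaling, does to the cerebellum when it is made in Purkinje cells. All 6 mice carried the *Sting1* N153S knock-in allele behind a LoxP-Stop-LoxP (LSL) cassette on both chromosomes. In the 3 *N153SLSL/LSLPcp2-cre* mice (hereafter Pcp2-cre) a Cre driven by the Purkinje cell promoter *Pcp2* removes the stop, and in the 3 *N153SLSL/LSL* mice (control) the stop remains. Cerebella were taken at 2 months of age after perfusion, from 2 males and 1 female of each genotype, and each library is 1 mouse.

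When calcium enters a neuron it binds calmodulin, and calcium-loaded calmodulin switches these kinases on. CaMKII forms large ring-shaped assemblies of mixed subunits that can stay active after calcium has fallen, and it acts on glutamate receptors and the cytoskeleton at synapses. CaMKI and CaMKIV form a cascade, since they need phosphorylation by the upstream kinases CaMKK1 and CaMKK2 to be fully active. In the cerebellum the beta subunit of CaMKII is widespread among neurons, the alpha subunit is known from Purkinje cells, where it takes part in synaptic plasticity, and CaMKIV is abundant in granule cells.

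Total counts per mouse were 6733178 to 10178218, so that 3 counts, used as the limit of detection, correspond to 0.297 to 0.447 CPM, the unit of counts scaled to library size. The labelled tissue was checked against marker lists. The 10 Purkinje cell genes summed to 6541 to 7097 CPM in controls against 3542 to 3928 in Pcp2-cre mice, and the 9 granule cell genes to 5772 to 5927 and 5945 to 6152 CPM. Of 8 forebrain neuron genes only *Neurod6* had enough counts to be tested, and 3 lay at or under 3 counts in every mouse. Control mouse 3 stood apart from the other controls in choroid plexus genes, with 31 counts of *Ttr* against 5169 and 6896.

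*Camk2a* was the single family member called lower in Pcp2-cre cerebella, and no member was called higher. Its transcript was 2.24-fold lower (95% interval 2.04 to 2.47), while the other 9 members did not pass the test. A missed threshold does not show that those 9 were unaltered. Genes were called with edgeR's quasi-likelihood test where the p, adjusted by Benjamini-Hochberg over all genes tested, did not exceed 0.05 and the log2 fold change (Pcp2-cre over control) was 0.5 or more in either direction. By this rule 1.79% of all genes tested were called lower and 1.37% higher, against 1 and 0 of the 10 members. At an unadjusted p under 0.05 with edgeR, 3 members were lower (*Camk2a*, *Camk1d* and *Camkv*) and 0 higher, and DESeq2 and limma also called 0 higher. The share of all genes under that unadjusted p was not counted. These counts, and those of the lists below, therefore have no background beside them. The median log2 fold change was -0.03 over the 10 members and -0.02 over the 9 without *Camk2a*, against 0.00 over all genes tested.

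**Figure D1:**
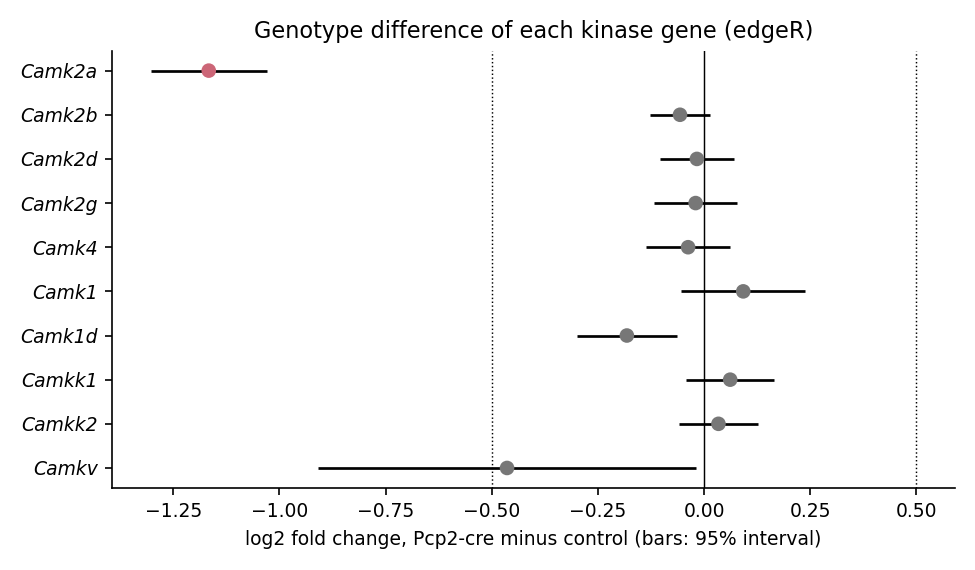
Log2 fold change (Pcp2-cre over control) of each of the 10 kinase genes from edgeR, with bars for the 95% interval. *Camk2a* lies at -1.17, far from the other 9, which range from -0.46 (*Camkv*, with the widest interval) to 0.09 (*Camk1*).

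Among the CaMKII subunits, *Camk2a* (ENSMUSG00000024617, GRCm39 chr18:61058473-61121224, plus strand) encodes the alpha subunit. It had 782, 683 and 894 counts in control mice 1 to 3 and 347, 372 and 261 in Pcp2-cre mice 1 to 3. Scaled to library size these were 97.6, 101.7 and 88.6 CPM against 45.7, 42.9 and 38.6 CPM. The groups did not overlap, and the highest Pcp2-cre value was well under the lowest control value. The log2 fold change was -1.17 (SE 0.0657, 95% interval -1.30 to -1.03, adjusted p = 8.28e-11 by edgeR with Benjamini-Hochberg adjustment). Without control mouse 3 it was -1.23. In the deposited FPKM values (fragments scaled to transcript length and library size) *Camk2a* had 17.4, 18.1 and 16.1 in control and 7.94, 7.12 and 6.57 in Pcp2-cre mice, a mean of 17.2 ± 0.993 against 7.21 ± 0.689 (SD, n = 3 each). A two-sided exact permutation test on these FPKM values gave p = 0.1, the smallest that 3 against 3 mice allow. Of the 304 genes called lower in the whole table, 62 had a larger fall than *Camk2a*, and the median of all 304 was -0.79 on the log2 scale. In bulk tissue, fewer cells of a type and less RNA per cell cannot be told apart.

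*Camk2b* (ENSMUSG00000057897, chr11:5915791-6016362, minus strand) encodes the beta subunit and was the most abundant member. Its levels were 721.7, 731.1 and 726.3 CPM in controls against 703.8, 689.1 and 702.2 in Pcp2-cre mice. All 3 Pcp2-cre values lay below all 3 control values, but by a small margin. The log2 fold change was -0.06 (SE 0.0343, 95% interval -0.13 to 0.01, adjusted p = 0.424 by edgeR with Benjamini-Hochberg adjustment). In FPKM the groups overlapped and the difference had the other sign, with 189 ± 8.34 in control and 197 ± 7.43 in Pcp2-cre mice (SD, n = 3 each). The small difference in *Camk2b* therefore had no fixed direction between the deposited scales. Exons of *Camk2b* share 1813 of 14378 bases with *Ykt6* on the opposite strand, and whether the counting used strand is not given in the sources used here.

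*Camk2d* (ENSMUSG00000053819, chr3:126389945-126639982, plus strand) and *Camk2g* (ENSMUSG00000021820, chr14:20784942-20844541, minus strand) encode the delta and gamma subunits, which are found in many tissues. *Camk2d* had 270 ± 8.72 CPM in controls against 266 ± 7.78 in Pcp2-cre mice (SD, n = 3 each), a log2 fold change of -0.02 with a 95% interval of -0.10 to 0.07. *Camk2g* had 147 ± 1.03 and 145 ± 9.85 CPM, a log2 fold change of -0.02 with a 95% interval of -0.12 to 0.08. Both genes overlapped between the groups on both scales, and their FPKM means were slightly higher in Pcp2-cre mice, the opposite sign to the CPM.

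The subunit make-up of CaMKII transcripts was read from shares within each mouse. *Camk2a* made up 5.72%, 6.16% and 5.31% of the summed CaMKII FPKM in control mice and 2.59%, 2.32% and 2.28% in Pcp2-cre mice. These values did not overlap, and the mean share was 5.73% ± 0.424 in control and 2.40% ± 0.168 in Pcp2-cre mice (SD, n = 3 each, exact permutation p = 0.1, the smallest possible). *Camk2b* held 62.9% ± 1.68 and 65.4% ± 0.0972, *Camk2d* 18.3% ± 1.09 and 18.9% ± 0.504, and *Camk2g* 13.1% ± 0.360 and 13.2% ± 0.761. Shares sum to the whole, so a lower share of one subunit raises the others. The summed FPKM of the 4 genes was 300.3 ± 5.63 in control and 300.4 ± 11.1 in Pcp2-cre mice (SD, n = 3 each), with overlapping groups. In CPM, the other scale, the sum was 1239 ± 7.69 in control and 1152 ± 8.03 in Pcp2-cre mice (SD, n = 3 each), without overlap (exact permutation p = 0.1, the smallest possible), so the scales differ on the total.

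**Figure D2:**
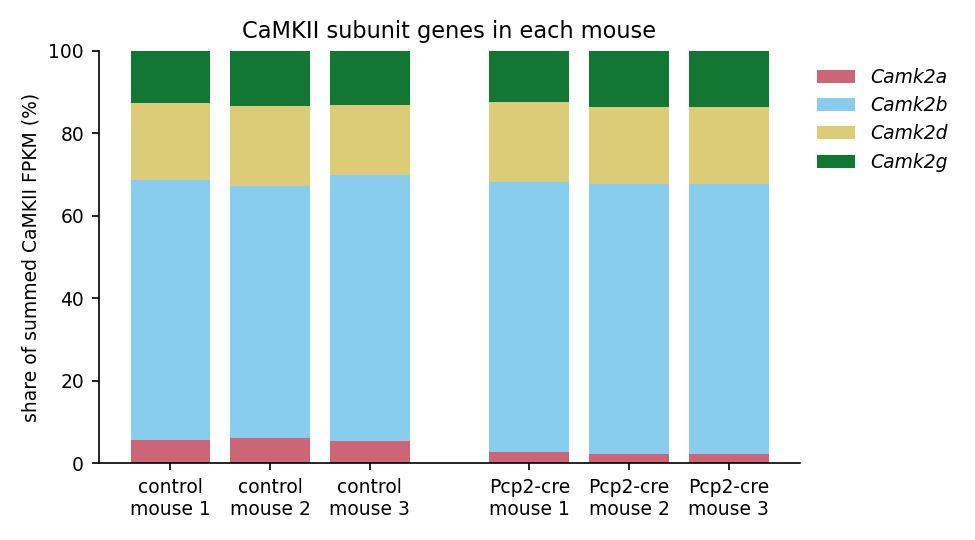
Share of each CaMKII subunit gene in the summed FPKM of the 4 genes, in percent, for each of the 3 control and 3 Pcp2-cre mice. The share of *Camk2a* lies between 5.31% and 6.16% in control and between 2.28% and 2.59% in Pcp2-cre mice, and *Camk2b* holds the largest share in every mouse.

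Within each mouse the log2 CPM of *Camk2a* minus that of *Camk2b*, a ratio that does not depend on library size, was -2.89, -2.85 and -3.03 in control and -3.94, -4.00 and -4.18 in Pcp2-cre mice. The groups did not overlap, and the difference of the means was -1.12 (exact permutation p = 0.1, the smallest possible). *Camk2a* and *Camk2b* transcripts share an identical stretch of at most 34 bases, and the longest such stretch between any pair of members was 43 bases, between *Camk2b* and *Camk1d*.

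Since Cre acts in Purkinje cells, *Camk2a* was set beside 10 markers of that cell type, among them *Calb1*, *Car8*, *Pcp2* and *Itpr1*. Of these markers 8 were called lower and none higher, and their log2 fold changes ranged from -0.98 (*Itpr1*) to -0.40 (*Pcp2*), with a median of -0.75. None of the 10 fell by more than *Camk2a*. The 95% intervals of *Itpr1* (-1.06 to -0.90) and *Car8* (-1.08 to -0.84) overlapped that of *Camk2a* (-1.30 to -1.03). Those of the other markers did not. Relative to the control mean, *Camk2a* lay at -1.07, -1.16 and -1.31 on the log2 CPM scale in Pcp2-cre mice 1 to 3, and the mean of the 10 markers at -0.60, -0.79 and -0.74. *Camk2a* was thus the lower of the pair in each Pcp2-cre mouse. The log2 CPM of *Camk2a* minus the marker mean was -1.33 ± 0.0737 in control and -1.80 ± 0.103 in Pcp2-cre mice (SD, n = 3 each), a difference of -0.47 with no overlap (exact permutation p = 0.1, the smallest possible). With *Itpr1* and *Pcp2* left out of the markers the difference was -0.46. The part of Purkinje cell number in the fall of *Camk2a* was not tested.

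**Figure D3:**
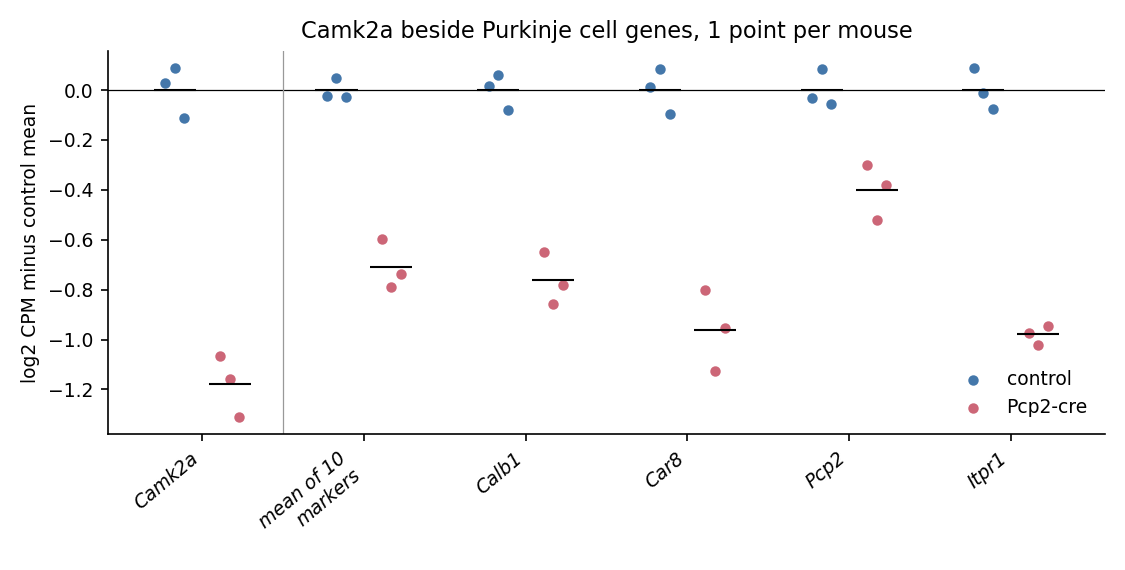
Log2 CPM relative to the control mean of *Camk2a*, of the mean of the 10 Purkinje cell genes and of 4 of these genes, with a point for each mouse and a line for each group's mean. In Pcp2-cre mice *Camk2a* lies at -1.07 to -1.31 and the marker mean at -0.60 to -0.79, and the control mice lie around 0.

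Markers of other cell types were read beside the fall of *Camk2a*. Of 9 granule cell genes none was called (edgeR; 3 higher and 0 lower at an unadjusted p under 0.05, and 0 called by DESeq2 or limma), and their median log2 fold change was 0.05. Of 8 interneuron genes none was called or had an unadjusted p under 0.05, and DESeq2 and limma called 0. Of 8 microglia genes 6 were called higher, and all 8 summed to 67.3 to 71.8 CPM in controls against 172.9 to 195.0 in Pcp2-cre mice. Of 7 astrocyte genes 2 (*Gfap* and *Aqp4*) were called higher. All 7 astrocyte genes together summed to 2159 to 2212 CPM in controls and 2523 to 2599 in Pcp2-cre mice. At any fold, 4 of the 7 astrocyte genes were higher and 2 lower with an edgeR adjusted p up to 0.05, the lower ones being *Slc1a3* and *Gdf10* with log2 fold changes of -0.22 and -0.25 (named after their values were seen). The 6 oligodendrocyte genes summed to 3548 to 3763 and 4154 to 4366 CPM, with 4 at an adjusted p of at most 0.05 by edgeR but under the fold threshold. The 4 choroid plexus genes tested summed to 30.6 to 1181 and 21.9 to 82.7 CPM, and 3 of them were called lower. Of the called genes, *Ttr* and *Kl* overlapped between the groups. Control mouse 3 had 31 counts of *Ttr*, against 32, 59 and 415 in Pcp2-cre mice 1 to 3. The part of these cell types in the values of the kinase genes was not tested.

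*Camk4* (ENSMUSG00000038128, chr18:33067984-33328821, plus strand) encodes CaMKIV, a nuclear kinase that phosphorylates the transcription factor CREB. It had 179.1, 166.6 and 157.1 CPM in controls against 160.2, 161.8 and 167.5 in Pcp2-cre mice, and the Pcp2-cre values lay within the control range. The log2 fold change was -0.04 (SE 0.0475, 95% interval -0.14 to 0.06, adjusted p = 0.759 by edgeR with Benjamini-Hochberg adjustment). Its FPKM values of 49.5 ± 5.83 and 47.2 ± 2.79 (SD, n = 3 each) overlapped too.

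Of the CaMKI genes, *Camk1d* (ENSMUSG00000039145, chr2:5298268-5719375, minus strand) encodes the delta form of CaMKI and had 80.1, 78.5 and 72.8 CPM in controls against 71.4, 63.7 and 68.6 in Pcp2-cre mice. The Pcp2-cre mice were the 3 lowest of the 6 in CPM and also in FPKM, where the values were 9.79, 9.07 and 8.98 against 8.28, 8.10 and 7.98. The log2 fold change was -0.18 (SE 0.0567, 95% interval -0.30 to -0.06, adjusted p = 0.0552 by edgeR with Benjamini-Hochberg adjustment), just over the threshold for p and well under that for fold. The adjusted p was at most 0.05 in 6 of 15 alternative fits, among them 0.0209 without control mouse 3, and as high as 0.349 with DESeq2. *Camk1* (ENSMUSG00000030272, chr6:113311071-113321106, minus strand), which encodes the alpha form, had 51.3 ± 3.56 CPM in controls against 54.4 ± 4.07 in Pcp2-cre mice (SD, n = 3 each), a log2 fold change of 0.09 with a 95% interval of -0.05 to 0.24. Its groups overlapped, and its exons share 984 of 7531 bases with *Ogg1* on the opposite strand.

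The upstream kinases also overlapped between the groups. *Camkk2* (ENSMUSG00000029471, chr5:122869233-122917739, minus strand) encodes CaMKK2, which also phosphorylates the energy sensor AMPK, and had 392 ± 18.8 CPM in controls against 402 ± 19.7 in Pcp2-cre mice (SD, n = 3 each). Its log2 fold change was 0.03 with a 95% interval of -0.06 to 0.13. *Camkk1* (ENSMUSG00000020785, chr11:72909421-72933202, plus strand) had 79.3 ± 3.18 and 82.8 ± 2.50 CPM, a log2 fold change of 0.06 with a 95% interval of -0.04 to 0.16.

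*Camkv* (ENSMUSG00000032936, chr9:107811702-107826897, plus strand) encodes a kinase-like protein without kinase activity and was the scarcest member. It had 46, 30 and 49 counts in control and 34, 31 and 19 in Pcp2-cre mice, or 5.74, 4.47 and 4.85 against 4.48, 3.58 and 2.81 CPM. The highest Pcp2-cre mouse lay just above the lowest control mouse. The log2 fold change was -0.46 (SE 0.213, 95% interval -0.91 to -0.02, adjusted p = 0.249 by edgeR with Benjamini-Hochberg adjustment), and its FPKM values of 1.15 ± 0.0935 and 1.03 ± 0.0860 (SD, n = 3 each) overlapped as well. The difference did not pass the test, and the reason was not tested. Leaving out 1 mouse gave log2 fold changes of -0.64 to -0.33, and limma on log2(FPKM + 1) gave -0.08.

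Across the family, 3 of the 10 members (*Camk2a*, *Camk2b* and *Camk1d*) had every Pcp2-cre CPM below every control CPM and none had every one above, against 11.4% and 10.8% of all genes tested. In FPKM the groups were separate for *Camk2a* and *Camk1d* and overlapped for the other 8. How many of all genes were separate in FPKM was not counted, so this FPKM result has no background beside it. For 8 members, all but *Camk2a* and *Camkv*, the 95% interval of the log2 fold change lay within 0.5 of 0 on either side.

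Levels of different genes were compared in FPKM. In control cerebella *Camk2b* stood highest at 189, followed by *Camkk2* at 75.1, *Camk2d* at 54.8, *Camk4* at 49.5, *Camk2g* at 39.4, *Camk1* at 26.8, *Camkk1* at 17.9, *Camk2a* at 17.2, *Camk1d* at 9.28 and *Camkv* at 1.15. Neighbours in this order had separate values over the 3 control mice, except *Camk2d* and *Camk4*, and *Camkk1* and *Camk2a*, which overlapped. In Pcp2-cre cerebella *Camk2a* at 7.21 lay below *Camk1d* at 8.12, with separate values, so that these neighbours had changed places, and it was separate from *Camkk1* at 19.4. The rest of the order was the same, with *Camk2d* and *Camk4* now separate.

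**Figure D4:**
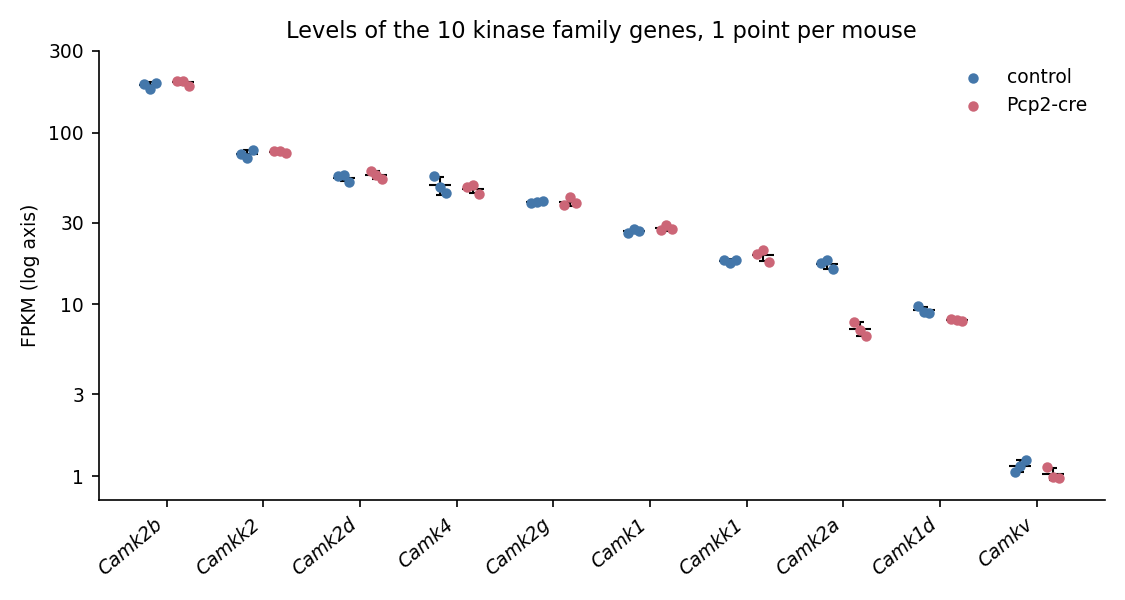
Deposited FPKM of the 10 kinase genes on a log axis, with a point for each of the 3 control and 3 Pcp2-cre mice and marks for the mean and SD. The genes span from about 1 FPKM (*Camkv*, 1.15 in control) to 189 FPKM (*Camk2b* in control), and the groups are separate for *Camk2a* and, by less, for *Camk1d*.

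Genes around the kinases were read from 5 lists with 72 genes in all, of which 68 were tested. Of these, 5 were called lower (7.35%) and 1 higher (1.47%), against 1.79% and 1.37% of all genes tested. The lists were chosen with earlier results of these data known, so these shares are a description and not a test. At any fold, 12 of the 68 were lower and 3 higher with an edgeR adjusted p up to 0.05. At that looser rule the shares over all genes tested were 4.75% and 2.99%. The median log2 fold change of the 68 was -0.03.

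Calcium entry and store genes held 4 of the 5 lower calls among 16 tested. These were *Itpr1*, the IP3 receptor of the endoplasmic reticulum and also one of the Purkinje cell markers above (log2 fold change -0.98), *Cacna1g*, a T-type calcium channel (-0.83), *Ryr1*, a ryanodine receptor (-0.77), and *Atp2a3*, a calcium pump of the endoplasmic reticulum (-0.76). *Ryr3*, another ryanodine receptor, was called higher at 0.50, right at the fold threshold, with 53.0 ± 3.26 CPM in controls against 74.9 ± 5.66 in Pcp2-cre mice (SD, n = 3 each). It lost its call without control mouse 1, without control mouse 3, without Pcp2-cre mouse 2 and without Pcp2-cre mouse 3, where 0 genes of the 5 lists were called higher, and also with DESeq2 and with limma on log2(FPKM + 1). *Atp2a2* (-0.36), the store sensor *Stim1* (-0.26) and the channel subunit *Orai2* (-0.19) had an adjusted p of at most 0.05 by edgeR but a smaller fold.

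Of 7 tested genes for calmodulin and proteins that bind it, *Pcp4*, a small calmodulin-binding protein of Purkinje cells, was called lower. It had 343, 310 and 456 counts in control and 205, 224 and 161 in Pcp2-cre mice, a log2 fold change of -0.80 (SE 0.0757, adjusted p = 1.68e-07 by edgeR with Benjamini-Hochberg adjustment). The calmodulin genes *Calm2* and *Calm3* had log2 fold changes of -0.11 and -0.08 and were not called, with *Calm3* named after its value was seen. *Gap43*, a calmodulin-binding protein of growing axons, stood at 0.15 with an adjusted p of 0.0255 by edgeR.

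None of 22 substrates and effectors was called by edgeR, DESeq2 or limma, and at an unadjusted p under 0.05 by edgeR 3 were lower and 4 higher. The AMPA receptor subunit gene *Gria1*, whose protein CaMKII phosphorylates, had a log2 fold change of -0.25, *Mef2c*, a transcription factor, -0.29, and *Hdac4*, a deacetylase that CaMK signaling moves out of the nucleus, -0.34 (named after its value was seen). With *Stmn1*, a microtubule regulator, at 0.17, these were the 4 with an adjusted p of at most 0.05 by edgeR, all under the fold threshold. In CPM the groups overlapped for *Hdac4* and were separate for *Gria1*, *Mef2c* and *Stmn1*.

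None of 11 tested inhibitors and phosphatases was called by edgeR, DESeq2 or limma, and 1 lower and 1 higher had an unadjusted p under 0.05 by edgeR. The CaMKII inhibitor gene *Camk2n2* had a log2 fold change of -0.15, the calcineurin regulator *Rcan2* 0.12 and the calcineurin subunit *Ppp3r1* -0.07. The other CaMKII inhibitor gene, *Camk2n1*, had 0.01 (named after its value was seen). None of 12 further related kinases was called by edgeR, DESeq2 or limma, with 1 lower and 0 higher at an unadjusted p under 0.05 by edgeR. This was *Dclk1*, a doublecortin-like kinase, at -0.13 (adjusted p = 0.0380 by edgeR with Benjamini-Hochberg adjustment). Next by p came *Dclk3* at -0.44, with overlapping groups, a 95% interval of -0.96 to 0.08 and 13 to 44 counts a mouse. *Cask* followed at -0.09.

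**Figure D5:**
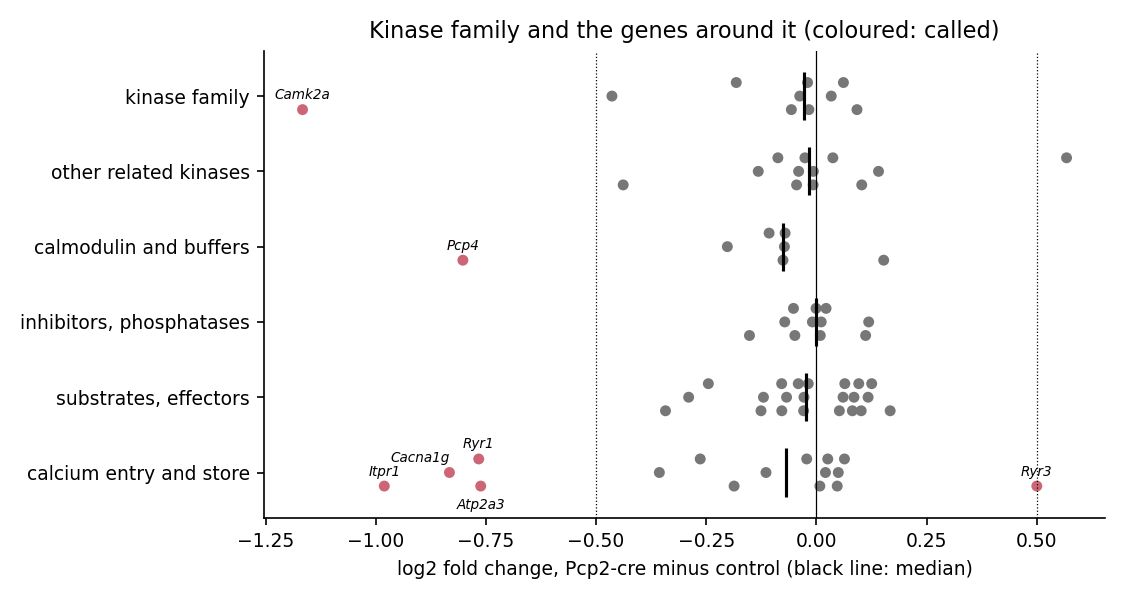
Log2 fold change (Pcp2-cre over control) of each tested gene of the 10 kinases and the 5 lists around them, with named points for genes called by edgeR. The calls lie in calcium entry and store genes (4 lower, 1 higher), in calmodulin and its binding proteins (*Pcp4*) and in the family itself (*Camk2a*).

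The genes whose log2 CPM followed that of *Camk2a* most closely over the 6 mice, among 11974 genes of sufficient level, were *Clstn3*, *Ipo5*, *Lrp8*, *Bcar1* and *Alpk2*, with Pearson's r of 0.999, 0.999, 0.999, 0.997 and 0.997. Their log2 fold changes were -0.31, -0.45, -0.36, -0.72 and -1.71. The 6 points fall into the 2 genotypes, so a gene clearly lower in Pcp2-cre mice, as *Camk2a* is, scores high. A gene clearly higher in Pcp2-cre mice has a negative r. An r of at least 0.95 was reached by 361 genes.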

How the data were processed

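RNA-seq of whole cerebellum was analysed in 6 mice, grouped by the genotype in the labels. The authors aligned trimmed paired reads from poly A-selected libraries to GRCm39 with STAR and quantified them with featureCounts and StringTie on Gencode. Versions, strand setting and treatment of multi-mapping reads are not given in the sources used here. Raw counts (53746 genes) and FPKM values (55005 genes) were deposited by the authors for each mouse separately. No library was a duplicate of another.

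Counts were fitted with edgeR 4.0.16 under R 4.3.3, by its quasi-likelihood test after filterByExpr and TMM scaling, with Benjamini-Hochberg adjustment over 16961 genes and the study's thresholds (adjusted p up to 0.05, log2 fold change from 0.5 in either direction). The step was tested on simulated data. CPM use TMM library sizes, and log2 CPM use a prior count of 0.5. FPKM and ratios were compared by two-sided exact permutation tests in SciPy 1.17.1, and for FPKM the p adjusted over the 10 genes was 0.5 or higher. Alternatives were DESeq2 1.42.0, DESeq2 size factors, no filter, a minimum of 10 counts per mouse, sex as covariate, a replicate block, limma 3.58.1 on log2(FPKM + 1) with genes of at least 0.5 FPKM in 3 mice, on log2(FPKM + 0.1) and without that filter, and leaving out each mouse.

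Named genes were the 10 members, every gene called in the 5 lists with up to 3 further genes per list of smallest p, and the 5 genes most correlated with *Camk2a*, with exceptions marked. Some genes the rule names are not reported here. The members and lists were chosen with earlier results of these data known. Positions and exon overlaps come from Gencode M39.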

Additional observations from a re-analysis of the deposited data

How the results depend on the processing

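*Camk2a* was called lower in all 15 alternatives, with log2 fold changes of -1.24 to -1.11 and adjusted p of 2.40e-93 to 0.00625, and in each of them 1 member was called lower and 0 higher. The smallest of these adjusted p came from edgeR without the low-count filter, where the log2 fold change was -1.18, close to the main fit. That p is therefore not read as stronger evidence. Same-numbered mice also share sex in the labels, but no litter or batch is named for them. Their deviations correlated at 0.0645, 0.0770 and 0.224 (the female pair), not every mouse correlated best with its own number, and they were not taken as pairs. The main fit called 304 genes lower and 233 higher. Leaving out 1 mouse gave 243 and 183 (without Pcp2-cre mouse 2) to 387 and 245 (without control mouse 3). A replicate block gave 319 genes lower and 229 higher. That block took *Camk1d* to an adjusted p of 0.0483 but changed no call among the members. DESeq2 called 146 genes higher, limma on log2(FPKM + 1) 191 lower, and limma without a filter 116 lower and 105 higher. *Ryr3* lost its call, leaving 0 genes of the lists called higher, with DESeq2, with its size factors in edgeR, without the low-count filter and with limma on log2(FPKM + 1) with and without a filter, and the count ranged from 0 to 1 when 1 mouse was left out. The 5 lower calls of the lists stayed in every alternative. *Calml4* joined them without the low-count filter and without control mouse 3, giving 6 in each. Near 0, signs turned. With limma on log2(FPKM + 1), log2(FPKM + 0.1) and no filter, *Camk2b* had 0.0584, 0.0586 and 0.0584, *Camk2d* 0.0532, 0.0541 and 0.0532, and *Camk2g* 0.0069, 0.0070 and 0.0069. Leaving out 1 mouse gave -0.0402 to 0.0046 for *Camk2d*, -0.0738 to 0.0254 for *Camk2g*, -0.0879 to 0.0102 for *Camk4* and -0.0090 to 0.0706 for *Camkk2*. The causes were not tested. The ratio of *Camk2a* to *Camk2b* kept its direction in the 9 alternatives run for it, and that to the Purkinje cell genes in 10, and with 3 mice a group their exact permutation tests could not pass 0.05. Depth limits *Camkv* most, at 19 to 49 counts a mouse.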
